A study of Nothobranchius furzeri with 42 samples.

Results

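The genes described here are the 150 whose level varied least over all 42 libraries of a study of the African turquoise killifish, Nothobranchius furzeri. They were chosen by their measured spread, from 25475 genes in the count table. A gene had to reach at least 10 CPM in every library, which 3864 genes did, and among those the 150 with the lowest standard deviation (SD) of log2 CPM were taken. CPM are counts relative to a fixed total, with each library's total first adjusted by a TMM factor that brings the bulk of genes to a common level, and a prior count of 2 was added before the logarithm. The low SD, the small tissue differences and the small fish differences of these genes are therefore properties of the choice and are given as descriptions.

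The fish were females of the short-lived GRZ strain, kept at 28 °C. From 16 weeks of age, 5 fish received 10 µM alendronate in the system water for 3 weeks, and 4 placebo fish received distilled water in its place, with a daily water change of 10% and sampling at 19 weeks. Alendronate is a bisphosphonate, a drug that binds bone mineral and acts mainly on bone-resorbing osteoclasts. Each of the 5 tissues (heart, spleen, kidney, liver and muscle of the caudal fin) gave 5 alendronate libraries, while placebo fish gave 4 libraries each of heart, liver and muscle, 3 of spleen and 2 of kidney. Fish are named here by arm and number, from the prefix of a library's title, and both arms share strain, sex, temperature and age. The sources used here do not say how many tanks there were, so treatment and tank cannot be told apart.

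Genes that keep a steady level in many tissues are commonly called housekeeping or reference genes. As background, they tend to serve functions that nearly every cell needs, such as transcription, splicing, protein synthesis and breakdown, and traffic between membranes. Their steadiness makes them useful as a yardstick for other genes, and a steady level on one scale need not be steady on another. The files give gene IDs without names, so no function can be attached to the 150 genes, and neither the lists of reference, ribosomal, proteasome, spliceosome and other housekeeping genes nor the markers of the 5 tissues could be matched to a row. Whether well-known reference genes are among the 150 was therefore not tested, and the tissue labels could not be set against named markers.

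Library totals ran from 20485992 to 35717250 counts. The TMM factors ran from 0.364 to 0.687 in liver, 0.622 to 0.791 in muscle, 1.08 to 1.51 in heart, 1.44 to 1.84 in spleen and 1.60 to 1.91 in kidney, so the same share of counts became a higher level in liver than in kidney. The spleen libraries of alendronate fish 1 and 3 gave 9.77% and 6.37% of their counts to 482 genes at least 10 times higher in liver than in any other tissue, against 0.474% to 2.25% in the other 6 spleen libraries. When the choice was repeated without them, 139 of the 150 genes were chosen again.

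The 150 genes had an SD of 0.14 to 0.25 log2 CPM with a median of 0.23, against a median of 0.55 over the 3864 eligible genes, whose highest SD was 3.21. The limit of the list fell in a dense stretch. Ranks 148, 149 and 150 had SDs of 0.2533, 0.2535 and 0.2537, and ranks 151, 152 and 153, just outside, had 0.2539, 0.2539 and 0.2543. Membership near the limit is thus decided by differences far smaller than the SDs themselves. For a typical member, the highest of the 42 libraries stood 1.99 times above the lowest, within a span over members of 1.55 to 2.61, against a median of 4.42 for all eligible genes. All 42 libraries lay within 2-fold for 80 members, and 98 eligible genes in all met that limit. Tissue means of a member differed at most 1.27-fold at the median, from 1.05-fold to 1.54-fold, against 2.36-fold for eligible genes.

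**Figure D1:**
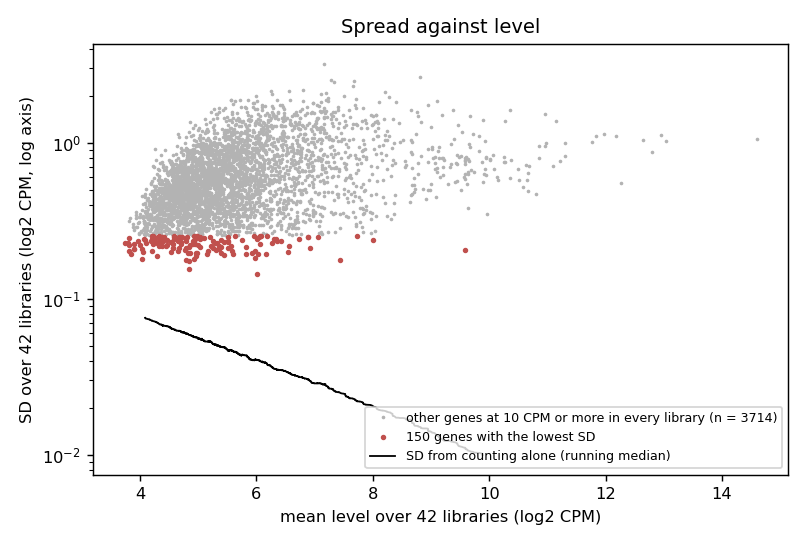
Each point is 1 of the 3864 eligible genes, with the mean level over 42 libraries on the horizontal axis (log2 CPM) and the SD over the same libraries on the vertical axis (log2 CPM, log axis), the 150 members in red; the black line is the running median of the SD that counting alone would give. Members form the lower edge of the cloud, at SDs of 0.14 to 0.25, and lie mostly on the left, with a median mean level of 29.3 CPM.

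The stable genes were mostly of moderate level. Their mean level had a median of 29.3 CPM and ran from 13.5 to 772 CPM, against a median of 45.9 CPM for eligible genes. Only 9 members averaged at least 100 CPM, 117 averaged less than 50 CPM and 29 less than 20 CPM. When eligible genes were split by mean level into 4 groups of 966, the lowest group held 71 members, the next 34, the third 27 and the highest 18. The minimum of 10 CPM bounds how far a low gene can fall and still be eligible, and the median SD of eligible genes was 0.41, 0.53, 0.62 and 0.76 in the same 4 groups. Lowering the minimum to 1 CPM made 10362 genes eligible and kept 121 members, and the 29 genes that entered averaged between 7.16 and 17.9 CPM.

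Counting error was a small part of what spread remained. A Poisson error for the observed counts would give a member an SD of 0.06 log2 at the median. That equals 6.39% of a member's variance at the median and 17.5% at most, against 0.79% for the median eligible gene. The lowest count of any member in any library was 102, in a liver library. PCR copies were not marked by molecular identifiers, so these figures cover counting error only.

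The steadiest gene of all, ENSNFUG00015008035, averaged 64.5 ± 6.46 CPM (SD, n = 42 libraries), with an SD of 0.14 log2 CPM and libraries between 48.1 and 83.8 CPM. In heart it stood at 62.6, 64.7, 73.6, 59.4 and 63.1 CPM in alendronate fish 1 to 5 and at 67.4, 67.7, 59.5 and 64.6 CPM in placebo fish 1 to 4. In liver it stood at 59.2, 63.0, 62.6, 67.3 and 69.1 CPM with alendronate and at 58.3, 61.1, 55.8 and 61.3 CPM with placebo. The arms overlapped in both tissues. In muscle it stood at 69.4, 48.1, 65.0, 56.4 and 55.4 CPM with alendronate and at 83.8, 55.9, 61.3 and 68.9 CPM with placebo. Its highest and its lowest library in the whole study were thus both muscle libraries, one of each arm. In spleen the values were 76.7, 66.3, 60.9, 71.9 and 73.0 CPM with alendronate and 71.4, 67.2 and 70.5 CPM in placebo fish 2 to 4, and in kidney 66.3, 64.3, 65.4, 59.7 and 60.0 CPM with alendronate and 66.5 and 65.6 CPM in placebo fish 2 and 3. In order of tissue means, spleen at 69.7 ± 4.83 CPM (n = 8) came before heart at 64.7 ± 4.44 (n = 9), kidney at 64.0 ± 2.90 (n = 7), muscle at 62.7 ± 10.5 (n = 9) and liver at 62.0 ± 4.21 (n = 9), and apart from spleen and heart each pair of neighbours in this order lay within 1 SD of each other. The edgeR quasi-likelihood test across the 5 tissues, which had no term for fish, gave it an adjusted p of 0.385.

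Before scaling, the same gene was far from even. Its share of counts was 28.3 ± 6.59 ppm in liver, 42.4 ± 9.12 in muscle, 85.5 ± 6.57 in heart, 113 ± 7.35 in kidney and 120 ± 9.96 in spleen, and its counts ran from 532 to 3734. The liver shares, at 40.7 ppm or less, did not overlap the heart shares, at 79.0 or more, and the scaling factors brought the tissues together.

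Rank 2, ENSNFUG00015020546, averaged 28.7 ± 2.95 CPM (n = 42) and had the narrowest span of any eligible gene between its lowest library at 21.5 and its highest at 33.3 CPM, a 1.55-fold range. Kidney averaged 31.3 ± 1.60 CPM, heart 30.2 ± 1.80, spleen 28.3 ± 2.15, liver 27.9 ± 3.17 and muscle 26.6 ± 3.33. Here the edgeR adjusted p across tissues was 0.0388, just under the threshold of 0.05. That fit had no term for fish and called 92.6% of all genes tested. The rule used the same libraries, so nothing is read from the call. In liver its alendronate libraries stood at 26.7, 26.2, 26.7, 26.4 and 22.3 CPM and its placebo libraries at 32.9, 31.3, 29.6 and 29.1 CPM. The arms did not overlap in liver, where the fitted difference was −0.21 ± 0.13 log2 (SE) with an edgeR adjusted p of 0.914. In muscle they did overlap, with 21.5, 24.1, 25.1, 27.9 and 31.2 CPM in alendronate fish and 29.1, 30.8, 24.8 and 24.5 CPM in placebo fish. The share of genes whose arms do not overlap is not given, so nothing is read from the gap in liver.

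The member with the highest level, ENSNFUG00015022982, ranked 35 and averaged 772 ± 109 CPM (n = 42), between 551 CPM in a kidney library and 995 CPM in a liver library. Heart averaged 843, liver 779, muscle 779, spleen 772 and kidney 660 CPM. Kidney was lowest, at 792, 551, 636, 579 and 630 CPM with alendronate and 703 and 730 CPM with placebo. Those kidney values overlapped the liver libraries, which stood at 681, 568, 995, 799 and 821 CPM with alendronate and 704, 737, 944 and 762 CPM with placebo. The adjusted p across tissues was 0.169. The next highest members were rank 99 at 262 ± 45.8 CPM, rank 139 at 215 ± 37.6 CPM and rank 5 at 174 ± 21.1 CPM.

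The member at the limit of the list, ENSNFUG00015004925 at rank 150, averaged 62.9 ± 10.8 CPM, nearly the level of rank 1, over libraries of 42.6 to 83.2 CPM. Liver averaged 68.8, heart 66.4, muscle 64.4, spleen 58.9 and kidney 53.5 CPM, with an adjusted p across tissues of 0.0775. On the TMM scale, the spleen library of alendronate fish 1 stood apart at 81.5 CPM. Alendronate fish 2 to 5 had 53.1, 52.7, 52.3 and 53.1 CPM there, and placebo fish 44.1, 66.1 and 68.1 CPM. As a share of counts the gap was smaller, with 118 ppm against 84.6, 95.4, 94.4 and 97.2 ppm in alendronate fish 2 to 5. Placebo fish 2 to 4 had 76.2, 122 and 116 ppm. The spleen of alendronate fish 1 had the lowest TMM factor of its tissue, 1.44, and the part of the scaling in its level was not tested. It is one of the libraries with more liver-enriched counts. The other, the spleen of alendronate fish 3, stood at 52.7 CPM, and the highest liver library of this gene at 78.7 CPM. The kidney of alendronate fish 1, at 71.8 CPM, was also the highest of its tissue, over 49.3, 45.0, 50.6 and 42.6 CPM in the other alendronate fish and 53.3 and 62.0 CPM with placebo.

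**Figure D2:**
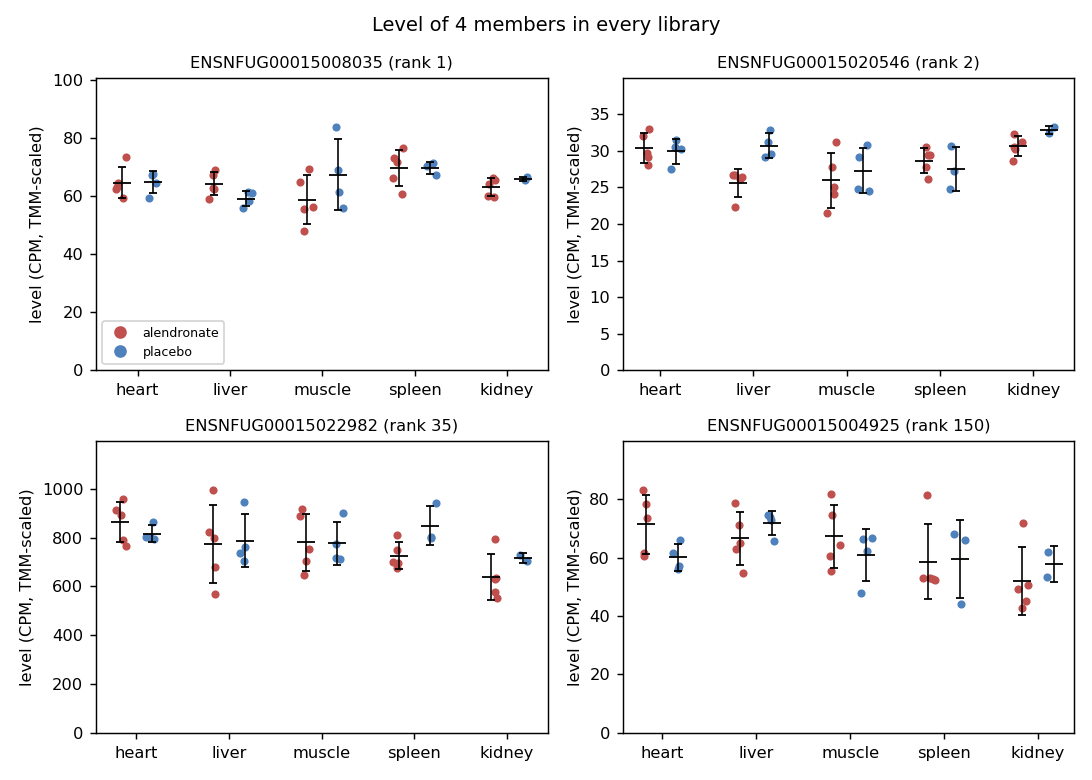
Level (CPM after TMM scaling) of the 4 members named by ID, by tissue, with 1 point per library, red for alendronate and blue for placebo, and bars for the mean ± SD of each group; every vertical axis starts at 0. Rank 1 stays between 48.1 and 83.8 CPM and rank 2 between 21.5 and 33.3 CPM in all 42 libraries, while rank 150 shows 1 high spleen library at 81.5 CPM.

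The evenness of the 150 genes rests on the scaling between tissues. As a share of all counts, the 150 genes together took 0.979 ± 0.064% in heart (n = 9), 0.312 ± 0.065% in liver (n = 9), 0.454 ± 0.053% in muscle (n = 9), 1.185 ± 0.091% in spleen (n = 8) and 1.154 ± 0.092% in kidney (n = 7). Liver and muscle libraries held the smallest shares, spleen and kidney the largest, and the tissue means of the share spanned 3.80-fold. After TMM scaling the mean level of the 150 genes was 5.14 ± 0.06 log2 CPM in heart, 5.06 ± 0.08 in liver, 5.03 ± 0.04 in muscle, 5.08 ± 0.07 in spleen and 5.01 ± 0.06 in kidney, a 1.09-fold span. A share of counts also depends on how much the other genes of a library take. The eligible genes together held 22.5% to 30.5% of counts in liver libraries and 65.3% to 70.5% in heart libraries. In these bulk libraries, fewer cells that express a gene and less of its RNA per cell cannot be told apart.

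**Figure D3:**
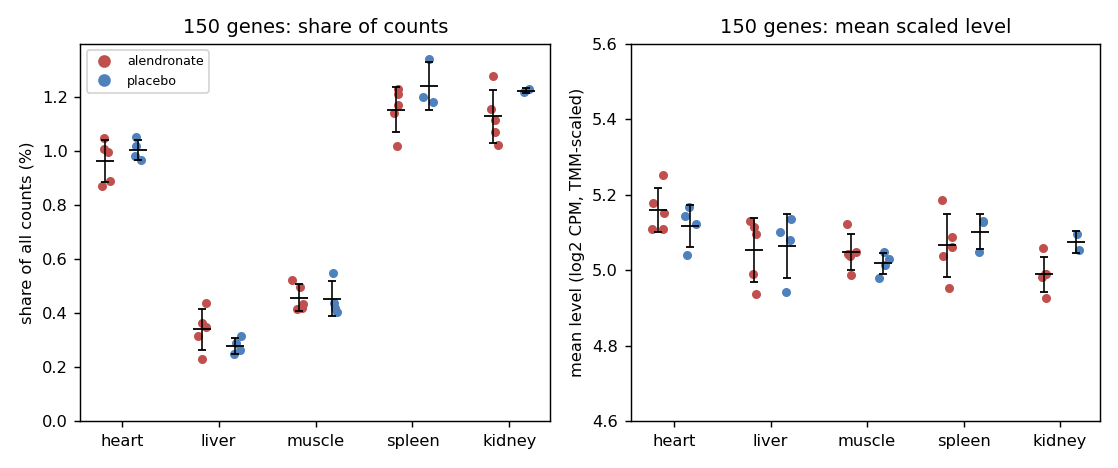
Left, share of all counts taken by the 150 genes (%), with the axis from 0; right, their mean level after TMM scaling (log2 CPM, axis not from 0); 1 point per library by tissue, red for alendronate and blue for placebo, bars for the mean ± SD of each group. The share spans 5.88-fold over libraries, lowest in liver at 0.228% and highest in spleen at 1.34%, while the scaled means of the tissues lie between 5.01 and 5.14 log2 CPM.

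When library totals alone were used, with no TMM factor, 0 of the 150 genes were chosen. The members' SD then had a median of 0.85 and a lowest value of 0.68, above the highest of the newly chosen 150 genes at 0.49. Liver became the lowest tissue for 149 of the 150 members, and spleen the highest for 86, kidney for 62 and heart for 2. The 150 genes chosen on library totals had a median SD of 0.70 under TMM scaling, and 135 of them were eligible there. Which scaling reflects RNA per cell was not tested, because the files hold no spike-in or cell count.

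A ratio of 2 genes within a library needs no scaling factor. Over the 11175 pairs of members, the SD of the log2 ratio of counts had a median of 0.30 and ran from 0.14 to 0.45, against a median of 0.82 over pairs of eligible genes. It was below 0.3 for 52.3% of member pairs and for 0.908% of eligible pairs. Among pairs of the 135 genes that were chosen on library totals and eligible under TMM scaling, the median was 0.48. This is a description, since genes chosen for a low SD on a common scale hold low ratios to each other by arithmetic. The steadiest pair was rank 19 and rank 97, whose ratio averaged 3.33 ± 0.32 and stayed between 2.78 and 4.12 in the 42 libraries. By tissue that ratio was 3.39 in heart, 3.33 in liver, 3.36 in muscle, 3.25 in spleen and 3.30 in kidney. A choice by the lowest mean ratio SD to all eligible genes took 91 of the 150 members.

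Small tissue differences remained within the 150 genes. On the TMM scale, heart was the highest tissue for 51 members (34%, beside 20.6% of eligible genes), liver for 33 (22%, beside 23.8%), spleen for 28 (18.7%, beside 17.4%), muscle for 23 (15.3%, beside 32.6%) and kidney for 15 (10%, beside 5.64%). The shares for liver and spleen were near those of eligible genes, those for heart and kidney were higher and that for muscle lower. Kidney was the lowest tissue for 45 members (30%, beside 20.4%), muscle for 40 (26.7%, beside 24.6%), liver for 39 (26%, beside 29.1%), spleen for 16 (10.7%, beside 21.1%) and heart for 10 (6.67%, beside 4.84%). The commonest order had heart highest and kidney lowest, in 22 members. The lead of heart depends on the scaling: heart was highest for 27 members with upper-quartile factors, where spleen led with 41, and for 19 with DESeq2 size factors, where liver led with 50. A single heart library, that of alendronate fish 3, was the highest of all 42 for 29 members and the lowest for 0, where even shares would give 3.57 per library. Its TMM factor, 1.08, was the lowest of the heart libraries, and so was its share of counts for the 150 genes, 0.870%. The SD over members of their deviation from their own mean was 0.28 there, against 0.14 to 0.18 in the other heart libraries. The part of the scaling in its high levels was not tested. Without that library heart remained the leading tissue, for 46 members.

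**Figure D4:**
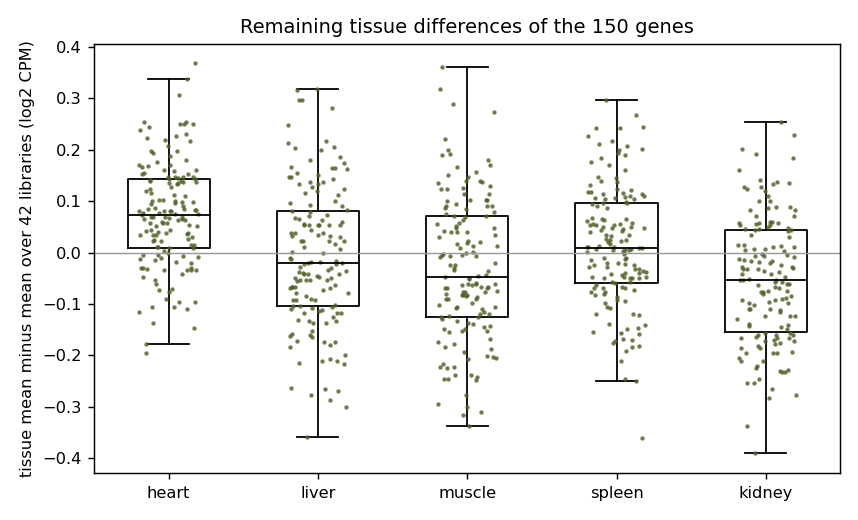
Tissue mean minus the mean over 42 libraries (log2 CPM, TMM scale) of each of the 150 members, 1 point per gene; boxes span the quartiles around the median line, and whiskers reach the last point within 1.5 box lengths. The median lies at 0.07 in heart, −0.02 in liver, −0.05 in muscle, 0.01 in spleen and −0.05 in kidney, and the order of the tissues changes with the scaling.

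The edgeR quasi-likelihood F test across the 5 tissues called 96 of the 150 members at an adjusted p under 0.05, or 64%, beside 92.6% of the 20892 genes tested. The rule used the same libraries, so nothing is read from the lower share. Called members had tissue means spanning 1.32-fold at the median and 1.18-fold at least, and members not called had 1.21-fold at the median and 1.297-fold at most. For 84 members the 95% intervals of all 10 differences between pairs of tissues lay within 1.5-fold in either direction. That limit was met by 154 genes, or 0.737% of all tested. Of the 84 members, 36 were also called. These intervals come from the values that chose the members, so the number of members within the limit is a description too. The fit had no term for fish, although the tissues come from the same fish. With fish as a block, 110 members were called, beside 93.4% of all genes tested.

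The following members were chosen after their values were seen. Rank 143 had the widest span of tissue means, with 82.8 ± 9.78 CPM in liver, 71.3 ± 6.95 in kidney, 68.1 ± 4.41 in spleen, 67.6 ± 5.75 in heart and 54.0 ± 7.17 in muscle. Its liver libraries, all at 72.3 CPM or above, did not overlap its muscle libraries, all at 66.2 CPM or below. Rank 106 had the smallest edgeR adjusted p across tissues, 2.23e-08, with 74.5 ± 8.29 CPM in heart, 74.3 ± 3.73 in muscle, 64.9 ± 3.77 in spleen, 62.2 ± 4.90 in kidney and 50.5 ± 4.14 in liver. Every liver library of that gene, up to 56.1 CPM, lay below every library of the other tissues, which began at 58.3 CPM. Rank 93 was at the other end, with 20.9 ± 3.91 CPM in heart, 20.4 ± 3.42 in muscle, 20.3 ± 3.48 in spleen, 19.7 ± 2.81 in liver and 19.6 ± 1.46 in kidney. Its tissue means spanned 1.05-fold and its adjusted p was 0.949, yet single libraries ran from 12.5 to 25.5 CPM. In this member, flat tissue means went with a highest library 2.04 times the lowest, near the member median of 1.99. The SD over libraries includes the differences between tissues, so the evenness of tissue means and the library spread are not independent.

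The spread that remained was divided into parts by sums of squares. The medians over members were 33.1% between tissues, 0.68% between arms, 17.5% between fish of an arm and 43.6% in the residual. Over eligible genes the medians were 75.8%, 0.25%, 7.41% and 14.4%. Each part has its own median, so the parts need not add up to the whole. With unequal numbers of libraries these parts follow the order in which they were taken, and the degrees of freedom alone would give 9.76%, 2.44%, 17.1% and 70.7%. For the members, the tissue part was above its share of the degrees of freedom, the fish part was close to its share and the residual was below. Since the residual fell short of its share, the fish part does not show that fish of an arm were alike. Per degree of freedom the fish part was larger than the residual, with 17.5% on 7 against 43.6% on 29. That difference was not tested. Members chosen after their values were seen mark the ends: rank 106 had 80.2% between tissues, rank 81 had 53.7% between fish, and rank 34 had 16.0% between arms.

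Within a tissue, members also varied less than most genes, which the rule helps to fix. The SD within heart had a median of 0.16 for members and 0.22 for eligible genes, within liver 0.21 and 0.29, within muscle 0.18 and 0.24, within spleen 0.18 and 0.29, and within kidney 0.15 and 0.23. By these medians liver was the most variable tissue for the members and kidney the least. The median member count was 268 to 500.5 in liver libraries and 1109.5 to 1650 in kidney libraries. Counting error was thus larger in liver, and its part in this order was not tested. An SD at or below the eligible median in all 5 tissues was found for 84 members, or 56%, against 12.3% of eligible genes. The remaining members had at least 1 tissue above the median: 30 in muscle, 20 in liver, 15 in kidney, 11 in heart and 3 in spleen. A list chosen by the mean of the within-tissue SDs shared 47 genes with the 150.

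Single libraries carried unequal numbers of extremes. Liver libraries (n = 9) were the highest or lowest of the 42 in 91 of 300 cases, muscle (n = 9) in 78, spleen (n = 8) in 51, heart (n = 9) in 42 and kidney (n = 7) in 38. The same counts over all eligible genes are not given, so these are not read as particular to the members. After the heart of alendronate fish 3, the muscle of placebo fish 4 was extreme for 25 members, 10 times highest and 15 times lowest, and the liver of alendronate fish 2 for 20, 18 of them lowest. Repeating the choice without the heart of alendronate fish 3 retained 135 members, and without the liver of alendronate fish 2 it retained 132, the fewest of the 42 repeats. In all 42 repeats 119 members were chosen each time.

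The comparison of alendronate with placebo asked how the drug affected gene expression in each tissue. In edgeR fits over all genes of a tissue, with Benjamini-Hochberg adjustment, 0 of the 150 members were called in heart, liver, muscle, spleen or kidney. The background was 0% of the 15975 genes tested in heart, 0% of 15167 in liver, 0.00641% of 15610 in muscle, 0% of 17545 in spleen and 0% of 19282 in kidney. DESeq2 also called 0 members in each tissue, beside 0% of all genes with an adjusted p in heart, 0.00441% in liver, 0.00862% in muscle, 0.0642% in spleen and 0.00836% in kidney. At an unadjusted p under 0.05, the members counted 0 in heart, 0 in liver, 5 in muscle, 0 in spleen and 0 in kidney, beside 2.62%, 4.37%, 7.41%, 1.62% and 1.7% of all genes tested. The choice used both arms of every tissue, so nothing is read from these counts. The smallest edgeR adjusted p of a member was 0.990 in heart, 0.914 in liver, 0.664 in muscle and 1.00 in spleen and kidney.

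The intervals of the members are described next; genes chosen for a low spread over these libraries have narrow intervals by that choice, so they are no independent bound on the effect of the drug. The 95% interval lay within 1.5-fold in both directions for 149 members in heart, 129 in liver, 131 in muscle, 124 in spleen and 122 in kidney. The farthest bound of any member was 1.52-fold in heart, 1.76-fold in liver, 1.70-fold in muscle, 1.66-fold in spleen and 2.09-fold in kidney. Spleen and kidney, with 3 and 2 placebo libraries, had the widest intervals, reaching at the median to either side by 0.41 and 0.40 log2 against 0.27 in heart, 0.36 in liver and 0.33 in muscle. For all genes tested the median reach was 0.48 in heart, 0.61 in liver, 0.51 in muscle, 0.74 in spleen and 0.80 in kidney.

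**Figure D5:**
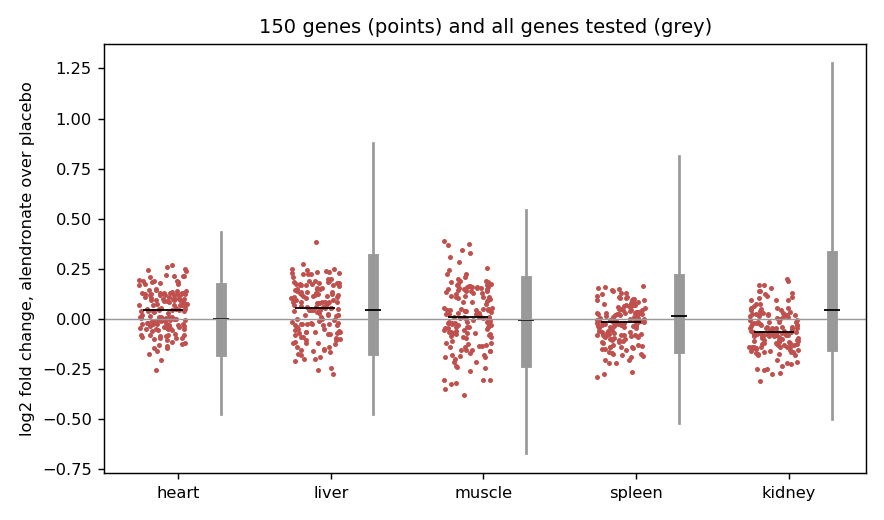
Log2 fold change of alendronate over placebo from the edgeR fit of each tissue; red points are the 150 members with a black median line, and grey bars give the 25th to 75th percentile (thick) and the 5th to 95th percentile (thin) of all genes tested. Members lie between −0.38 and 0.39 in every tissue, and their median is lowest in kidney, at −0.07.

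The median log2 fold change of the members was 0.04 in heart, 0.06 in liver, 0.01 in muscle, −0.02 in spleen and −0.07 in kidney. For all genes tested it was −0.001 in heart, 0.04 in liver, −0.004 in muscle, 0.02 in spleen and 0.04 in kidney. Estimates were above 0 for 94 members in heart (62.7%, beside 49.8% of all genes tested), 94 in liver (62.7%, beside 55.4%), 81 in muscle (54%, beside 49.4%), 61 in spleen (40.7%, beside 53.0%) and 42 in kidney (28%, beside 56.3%). The sign in muscle and spleen turned on single libraries. Leaving out placebo fish 2 gave a muscle median of −0.011, leaving out placebo fish 3 gave −0.0038 and leaving out alendronate fish 5 gave −0.0068, and the spleen median was 0.035 without placebo fish 3 and 0.028 without alendronate fish 5. The heart median was 0.01 without the heart of alendronate fish 3. In kidney the mean level of the 150 genes was 4.93 to 5.06 log2 CPM in 5 alendronate libraries and 5.05 to 5.09 in 2 placebo libraries, which overlap slightly, and leaving out the library of placebo fish 3 or placebo fish 2 gave a median change of −0.12 or −0.026. In the liver the mean level on the common 42-library scale differed by −0.01, the opposite sign to the fitted median, which uses a scaling of the liver libraries alone.

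The 5 members with an unadjusted p under 0.05 in muscle were ranks 49, 110 and 123, at 0.37 ± 0.13, 0.37 ± 0.15 and 0.39 ± 0.17 log2 (SE), and ranks 40 and 149, at −0.38 ± 0.17 and −0.32 ± 0.12. Each had an edgeR adjusted p of 0.664. Rank 49 had the smallest unadjusted p of these, 0.0127 in the edgeR fit. Its muscle libraries stood at 57.7, 50.3, 62.0, 58.9 and 59.6 CPM with alendronate and at 40.5, 42.04, 49.0 and 44.5 CPM with placebo. The arms did not overlap, but rank 49 was picked for its small p from these same values. The share of genes with such a gap is not given either, so nothing is read from it.

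The rule was then applied to part of the libraries and its choice measured in the rest. Of the 150 genes chosen in the 25 alendronate libraries, 137 were eligible in the 17 placebo libraries, with a median SD there of 0.24 against 0.56 for all genes eligible there. Their median rank was at the 4.31st percentile of the spread, the highest at the 43.3rd, and 63 were among the 150 lowest. Of the 150 genes chosen in the placebo libraries, 146 were eligible in the alendronate libraries, with a median SD of 0.25 against 0.54, and a median at the 4.45th percentile. The 63 genes are those that both lists share, fewer than 1 in 2 of either. With library totals in place of TMM factors, the lists of the arms shared 104 genes, with medians at the 3.62nd and 3.41st percentile, and they held 0 of the 150 members. Low spread in one arm thus went with low spread in the other on either scale. Each arm was scaled on its own here, and both arms share the tissues.

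A tissue left out of the choice was a harder measure. Of 150 genes chosen without spleen, all 150 had a spleen mean within 1.5-fold of their mean in the other tissues, and the same held for 150 of 150 chosen without kidney, beside 62.8% and 70.7% of the genes eligible in each choice. Without heart the number was 145 of 150, beside 76.2%, without muscle 116, beside 48.3%, and without liver 112, beside 52.0%. The largest departure was 1.49-fold in spleen and 1.46-fold in kidney, but 3.10-fold in heart, 3.86-fold in muscle and 9.04-fold in liver. Over all genes tested, spleen and kidney were the most alike pair, with a median absolute difference of 0.54 log2. The next closest pair, heart and spleen, had 0.77. When spleen or kidney was left out, the other still took part in the choice, so the tissues are not like measures. Among the genes chosen without liver, with the scaling of all 42 libraries kept, 139 reached 10 CPM in every liver library and 69 were members of the 150. Genes even over 4 tissues were therefore not always even in a left-out liver or muscle. The left-out libraries had no part in the SD or the minimum level, but they did enter the scaling factors. The libraries of a left-out tissue come from the same fish as the others.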

How the data were processed

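The authors deposited whole-number read counts per gene, without normalization, in 1 table of 25475 Ensembl gene IDs and 42 libraries. Tools listed in the submitters' processing notes, with no role, are STAR 2.7.10b, SAMtools 1.13, Trim Galore 0.6.10, FastQC 0.12.1, MultiQC 1.28, bcl2fastq and CASAVA. The counter, strand setting, genome build and annotation were not given in the sources used, so overlapping genes and near-identical copies may share counts. Of the IDs, 0 matched the gene table at hand. The 150 genes and all lists were chosen with earlier results of these data known.

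Levels were CPM with TMM factors from all 42 libraries (edgeR 4.0.16, R 4.3.3; prior count 2 for log2). Each tissue was tested for treatment with filterByExpr, its own TMM factors and the robust quasi-likelihood F test; tissues were tested over 10 groups of tissue and arm. P-values were two-sided, adjusted by Benjamini-Hochberg over all genes tested, with a threshold of 0.05, and intervals are 95%. Nothing says whether the libraries of a tissue come from separate tanks, so p-values describe variation between these fish only. DESeq2 1.42.0, other scalings, filters and lists, and leaving out each library, were the alternatives. The steps were tested on simulated counts with planted changes larger than the tissue and treatment differences of the members. That test does not bear on differences as small as theirs. Named IDs are the 2 members of lowest SD, the one of highest level and rank 150; other members are given by rank. Library totals of 20485992 to 35717250 counts limit precision through counting error, given with the values. Libraries with the same title prefix were read as 1 fish, so fish pair tissues; numbers do not pair the arms.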

Additional observations from a re-analysis of the deposited data

Results flagged for a closer look

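In 48 groups of 4 or 5 libraries, over 6 measures, a library was looked for whose gap to the nearest other was large beside the whole range of its group. It was found in 3 groups, and chance gives about 1 in 20. ENSNFUG00015020546 stood at 4.48 log2 CPM in the liver of alendronate fish 5, below the next at 4.71. ENSNFUG00015022982 stood at 9.76 log2 CPM in the heart of placebo fish 4, above the next at 9.65. ENSNFUG00015004925 stood at 6.35 log2 CPM in the spleen of alendronate fish 1, above the next at 5.73, and that library also holds more counts of liver-enriched genes. The highest liver library of this gene stood at 6.30 log2 CPM. The spleen of alendronate fish 3, also with more liver-enriched counts, stood at 5.72. As a share of counts, the gene took 118 ppm in the flagged spleen library and 19.9 to 48.9 ppm in liver libraries. The other spleen libraries had 76.2 to 122 ppm, so the flagged library was not the highest by share. Its TMM factor, 1.44, was the lowest in spleen. The parts of the scaling and of the liver-enriched counts in the flagged value were not tested.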

How the results depend on the processing

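Of 253 values under alternatives for 20 results, 233 stayed within 1.5-fold (counts and percentiles) or 1 SD (other values) and 20 moved. The 253 include 63 median treatment changes and the counts of members called for treatment, which were 0 in every setting. With members chosen for low spread and few genes called at all, those counts had little room to move. The 233 are thus no measure of how firm the results are. Those 233 include 5 median treatment changes near 0 that turned sign without 1 library, 3 in muscle and 2 in spleen. The list of 150 shared 0 genes with the choice on library totals, 0 with the choice without a minimum level, which by construction takes genes of at most 2 counts in all, 95 with the SD over 10 group means, 47 with the mean of within-tissue SDs, 96 without heart, 66 without liver and 77 without muscle, with scaling factors recomputed on the remaining libraries, 95 with placebo libraries only, and 91 with the mean ratio SD, an alternative chosen after seeing the data. It shared 105 to 150 with the other settings and 132 to 148 without 1 library. With library totals the members called between tissues rose from 96 to 150, those bounded within 1.5-fold fell from 84 to 0, and the part between tissues went from 33.1% to 92.4%. The other settings gave 79 to 110 members called, and 86 to 102 without 1 library. The share of all genes called was 92.6% in the main fit and is given otherwise only with fish as a block. The share of all genes bounded within 1.5-fold, 0.737%, is given for the main fit only. Nothing is read from the member counts of the other settings. Heart was the highest tissue for 51 members, for 19 with DESeq2 size factors, 27 with upper-quartile factors and 2 with library totals, settings chosen after seeing the data; the causes of these shifts, beyond the scaling itself, were not tested. Without 1 library the median treatment change in kidney ran from −0.12 without placebo fish 3 to −0.026 without placebo fish 2.

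With fish as a replicate block, 110 members were called between tissues, 95 of them also called without it, beside 93.4% of all genes tested. With that block 99 members were bounded within 1.5-fold, and no share over all genes is given for this number. The treatment fits were repeated with the number that an alendronate and a placebo library share as a replicate block, although the labels give these libraries to different fish. Within tissues, deviations of same-numbered libraries from their group means correlated between −0.26 and 0.35 across genes. The correlation was over 0.1 in 6 of 17 pairs. No such count is given for pairs of unlike number, so this one is not read. For each placebo library, the alendronate library with the highest correlation, out of the 5 of its tissue, was also looked up. It carried the same number for 0 of 4 placebo libraries in heart, 1 of 4 in liver and 1 of 4 in muscle. In spleen it did so for 1 of 3 and in kidney for 1 of 2. Whether same-numbered libraries share anything beyond a number was not tested further. With that block 0 members were called in each tissue, and the median change was 0.03 in heart, 0.03 in liver, 0.003 in muscle, −0.002 in spleen and −0.09 in kidney. The 2 to 5 libraries per group limit the precision of each change.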
